A study of Mus musculus with 29 samples.

Results

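The HoxB cluster genes are a row of neighbouring genes on mouse chromosome 11, and the 9 described here are Hoxb1 to Hoxb9. They were found by matching the Entrez gene identifiers of the count tables to mouse symbols, and all 9 were present among the 18834 genes counted. The RNA came from megakaryocyte-erythrocyte progenitors (MEPs), sorted precursors of the platelet and red cell lineages, in 29 mouse libraries of 6 genotypes. Every library, controls included, carried SclCre (spelled ScleCre in some labels), a Cre recombinase named for Scl, a transcription factor of blood stem and progenitor cells. Without the JAK2V617F allele, 5 libraries were Ezh2 +/+ (the controls, 2 male and 3 female), 4 were Ezh2 +/- (2 male, 2 female) and 4 were Ezh2 -/- (1 male, 3 female). With JAK2V617F, written V617F from here on, 4 were Ezh2 +/+ (1 male, 3 female), 6 were Ezh2 +/- and 6 were Ezh2 -/-, and those 12 were all female. The sources used here do not give the ages, the time of recombination, the sort gates or whether a library pooled mice. The labels call the libraries of a group replicates and say no more, so p-values measure the spread between these libraries, which may be technical.

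HoxB genes encode homeodomain transcription factors that specify position along the body axis in the embryo, and they are switched on in the order in which they lie, from Hoxb1 at the 3′ end towards Hoxb9. In blood, genes towards the 3′ end of the cluster are known for their expression in stem and early progenitor cells, and Hoxb4 is known for expanding stem cells when overexpressed. Polycomb repressive complex 2, whose catalytic subunit is Ezh2, methylates lysine 27 of histone H3 and holds Hox clusters silent in many tissues, whereas V617F is the activating JAK2 mutation of myeloproliferative neoplasms.

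The libraries held 31.6 M to 59.4 M counts, so that 3 counts, taken as the limit that a count of 0 allows, corresponded to 0.0496 to 0.0946 CPM, a gene's count scaled by its library's total (in M counts, adjusted for composition). These limits cover counting error only. Ezh2 itself was at 269 to 319 CPM in the controls and 67.9 to 79.5 CPM in Ezh2 -/-, and at 244 to 313 and 51.2 to 59.5 CPM in the matching V617F groups, so that its level followed the labels in each of these libraries. All 24 listed erythroid markers were detected in every group, with a sum of 7760 to 14400 CPM per library. The sums were 185 to 2210 CPM for 23 megakaryocyte and platelet genes and 781 to 3240 for 30 stem and multipotent progenitor genes. Granulocyte genes (16) summed to 22.9 to 1850 CPM, and monocyte, macrophage and dendritic genes (18) to 47.6 to 620. The sums were 157 to 393 CPM for 12 mast cell and basophil genes, 34.6 to 301 for 19 markers of T and NK cells, and 4.71 to 102 for 14 B cell genes.

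In the RefSeq annotation of build GRCm38.p6 the cluster runs from Hoxb13 through Hoxb9 to Hoxb1, followed by Skap1, Snx11 and Cbx1. The interval of Hoxb3 contains Hoxb4 and the microRNA gene Mir10a. The long noncoding gene Hoxb5os overlaps Hoxb5 and Hoxb6, and Hoxb3os overlaps Hoxb3 and Hoxb2. Neither long noncoding gene had a row of its own in the count tables. The sources used here do not give the strand setting of the counting, so reads of these members and of their antisense partners cannot be told apart, and reads in sequence common to Hoxb3 and Hoxb4 carry the same uncertainty. The RefSeq promoter table held 3 of the 9 members. The 250 bases before their start sites are shown because they belong to the member with the most counts, Hoxb4, and to 2 members near the counting limit, Hoxb8 and Hoxb1. All 3 lie on the + strand of GRCm38.p6, at chr11:96318017-96318266, chr11:96281655-96281904 and chr11:96365508-96365757. Capitals mark CCAAT, the motif of NF-Y, and TGATNNAT, a joint motif of Hox and Pbx proteins, on either strand.
Hoxb4: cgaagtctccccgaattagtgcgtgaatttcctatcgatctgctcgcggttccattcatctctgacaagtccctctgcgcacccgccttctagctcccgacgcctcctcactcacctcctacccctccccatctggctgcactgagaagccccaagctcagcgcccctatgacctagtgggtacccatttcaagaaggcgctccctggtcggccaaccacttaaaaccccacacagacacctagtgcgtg
Hoxb8: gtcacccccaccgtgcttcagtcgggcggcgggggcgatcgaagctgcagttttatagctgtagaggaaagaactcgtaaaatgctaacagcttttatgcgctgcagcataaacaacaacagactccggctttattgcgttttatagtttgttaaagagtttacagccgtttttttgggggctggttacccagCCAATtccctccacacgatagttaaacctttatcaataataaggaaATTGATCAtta
Hoxb1: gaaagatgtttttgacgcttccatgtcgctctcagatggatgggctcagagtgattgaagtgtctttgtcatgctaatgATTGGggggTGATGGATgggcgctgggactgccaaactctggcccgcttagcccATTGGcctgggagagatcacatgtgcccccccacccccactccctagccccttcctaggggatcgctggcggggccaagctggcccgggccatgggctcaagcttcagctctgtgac
The Hoxb4 window was 58.0% G or C with 14 CG dinucleotides, against medians of 52.4% and 6 over 32851 promoter windows of the same length. It held no match to the NF-Y motif, to the joint Hox and Pbx motif, to TATAAA or to the motif of the USF factors, CACGTG, which says only that these letters are not in this window. The Hoxb8 window was 44.4% G or C with 12 CG, and held 1 NF-Y match, 1 match to the Hox and Pbx motif and 2 to TATAAA. The Hoxb1 window was 59.2% G or C with 7 CG, and held 2 NF-Y matches and 1 match to the Hox and Pbx motif. None of these matches overlapped another. Over all windows the NF-Y motif was found in 33.8%, the Hox and Pbx motif in 7.68%, TATAAA in 12.4% and the USF motif in 6.02%, on either strand. A match is a description of the letters, not of binding.

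Expression was concentrated in the middle of the 3′ side of the cluster. Hoxb2 to Hoxb5 took 98.3% of the 10101 counts that all 9 members received in the 29 libraries, with 46.0% in Hoxb4, 25% in Hoxb3, 17.9% in Hoxb2 and 9.41% in Hoxb5. These 4 had counts in every library and passed the filter on low counts. Hoxb1, at the 3′ end, received 25 counts in 12 libraries. On the 5′ side, Hoxb6 received 106 counts in 24 libraries, Hoxb7 8 counts in 6, Hoxb8 18 counts in 5 and Hoxb9 15 counts in 9. These 5 members did not pass the filter and have no value in the fit across genes. Hoxb13, which lies apart beyond the 5′ end and is not a member, had 7 counts in all.

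**Figure D1:**
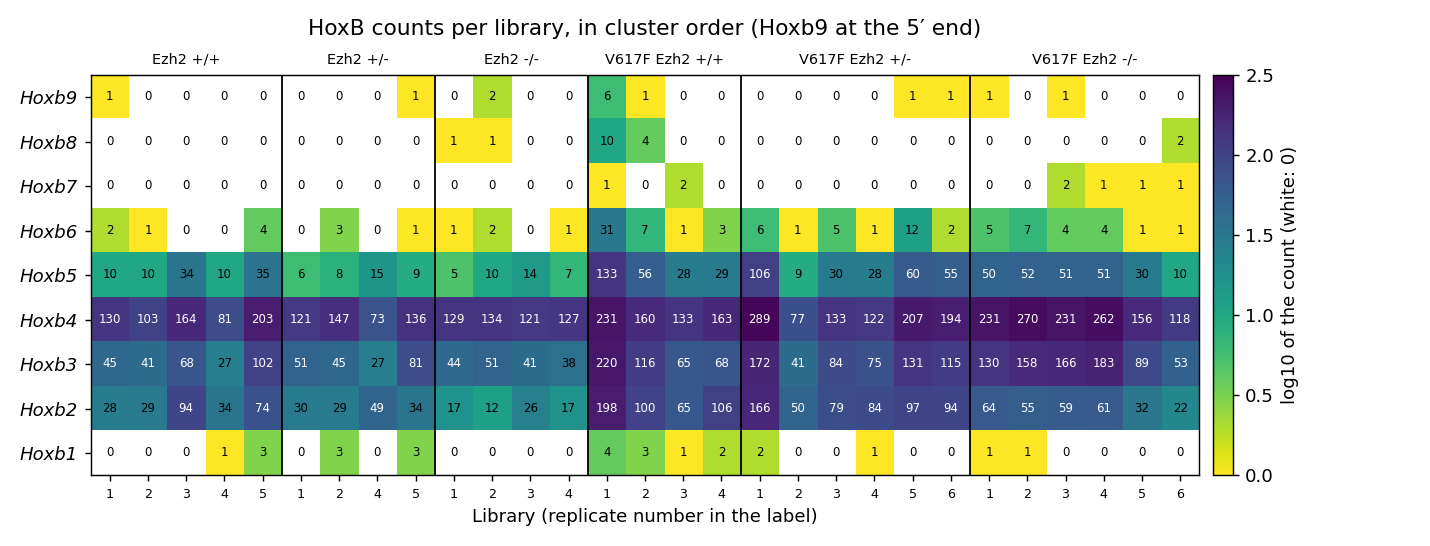
Counts of the 9 HoxB members (rows, in cluster order) in each of the 29 libraries (columns, by genotype and label replicate number), printed in the cells and coloured by their log10. Rows Hoxb2 to Hoxb5 are filled in every library, while Hoxb1 and Hoxb6 to Hoxb9 hold mostly 0 or a few counts, and all of these but Hoxb7 have their highest count in V617F Ezh2 +/+ replicate 1.

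Per length of transcript, Hoxb4 was the most abundant member in the controls at 1.13 ± 0.202 RPKM (CPM per kilobase of the deposited gene length; SD, n = 5). Among 32 Hox genes (Hoxb13 not among them) this was the second level after Hoxa9, at 3.49 ± 0.626 RPKM, and close to Hoxa7, at 1.11 ± 0.55 RPKM, with a difference smaller than the spread of either. Hoxb2 followed within the cluster at 0.655 ± 0.264 RPKM, Hoxb3 at 0.313 ± 0.0925 and Hoxb5 at 0.209 ± 0.0995. The Hoxb4 level lay at percentile 45.0 of all genes and that of Hoxb5 at percentile 34.9, so that the detected members were weakly expressed in these progenitors. In V617F Ezh2 +/+ the order of the mean levels was different: Hoxb2 was at 1.75 ± 0.979 RPKM and Hoxb4 at 1.60 ± 0.514 (SD, n = 4), a difference smaller than the spread of either.

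Hoxb2 fell with the loss of both Ezh2 copies, without and with V617F, and was the only tested member called in those comparisons (1 of 4). That count is near the share of all tested genes called (23.7% without V617F and 26.6% with it), so it does not set the members apart. Hoxb2 is the member next to Hoxb1 and is known for patterning the hindbrain. Its level was 0.734, 0.658, 1.72, 0.995 and 1.22 CPM in the 5 controls. The 4 Ezh2 -/- libraries had 0.346, 0.247, 0.476 and 0.365 CPM, from 12 to 26 counts each. All 4 lay below all 5 controls. The log2 fold change was −1.59 ± 0.387 (SE; adjusted p = 0.00407 by the quasi-likelihood test of edgeR, Benjamini-Hochberg adjusted over 13928 genes). In that comparison 23.7% of all tested genes were called, 11.5% higher and 12.2% lower. In a bulk sample, fewer cells of a type and less RNA per cell cannot be told apart.

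The difference was of like size with V617F. The V617F Ezh2 +/+ libraries had 5.13, 2.42, 1.42 and 2.42 CPM of Hoxb2. In the 6 V617F Ezh2 -/- libraries the lowest value was 0.694, the median 1.16 and the highest 1.35 CPM. The groups did not overlap, although the V617F Ezh2 -/- libraries covered much of the range of the controls without V617F. The log2 fold change was −1.45 ± 0.335 (SE; edgeR adjusted p = 0.00285), against 26.6% of all tested genes called, 13% higher and 13.6% lower.

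Of the members near Hoxb2, Hoxb3 and Hoxb4 had no call with Ezh2 loss, while Hoxb1 did not pass the filter. Without the filter Hoxb1 was called lower in V617F Ezh2 -/- than in V617F Ezh2 +/+ (−3.01, edgeR adjusted p = 0.0186), on 2 against 10 counts. Hoxb3, known for disturbing lymphoid development when overexpressed in marrow, had 1.18, 0.930, 1.25, 0.790 and 1.69 CPM in the controls and 0.895, 1.05, 0.751 and 0.816 CPM in Ezh2 -/-. Hoxb4 had 3.41, 2.34, 3.01, 2.37 and 3.36 CPM in the controls and 2.62, 2.76, 2.22 and 2.73 CPM in Ezh2 -/-. For both genes the ranges overlapped. Hoxb3 had a log2 fold change of −0.49 without V617F (95% interval −1.27 to 0.30; adjusted p = 0.364 in edgeR) and −0.07 among V617F libraries (−0.79 to 0.64; adjusted p = 0.894). Hoxb4 had −0.20 (95% interval −0.76 to 0.36; edgeR adjusted p = 0.623) and 0.15 (−0.38 to 0.69; adjusted p = 0.696). The interval of Hoxb3 without V617F reaches past a change of 1 log2 unit, so a missing call does not show that its level was the same.

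Hoxb5, which marks long-term stem cells in mouse marrow, had no call with Ezh2 loss. The controls had 0.262, 0.227, 0.624, 0.293 and 0.579 CPM and the Ezh2 -/- libraries 0.102, 0.206, 0.256 and 0.150 CPM. The ranges overlapped at the low end of the controls. The log2 fold change was −1.21 without V617F (95% interval −2.47 to 0.0586; adjusted p = 0.155 in edgeR) and −0.85 among V617F libraries (−1.88 to 0.18; adjusted p = 0.209). In both comparisons the interval of Hoxb5 includes the fold change of Hoxb2.

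Loss of 1 Ezh2 copy gave no call for any of the 4 tested members. The Ezh2 +/- libraries had 0.598, 0.656, 1.29 and 0.664 CPM of Hoxb2, within or just under the range of the controls. The log2 fold changes without V617F were −0.31 for Hoxb2, −0.08 for Hoxb3, −0.16 for Hoxb4 and −0.75 for Hoxb5. With V617F they were −0.31, −0.22, 0.02 and −0.41 in the same order. By edgeR 0 of 4 were called in either comparison, 0 of 4 had an unadjusted p under 0.05, and DESeq2 called 0. Over all tested genes 0.0144% were called without V617F and 0.00718% with it, so that few genes of any kind were called here.

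V617F was accompanied by higher levels of HoxB members in all 3 Ezh2 backgrounds. In Ezh2 +/+, 3 of 4 rose (23.6% of all genes were called, 9.73% higher and 13.9% lower), in Ezh2 +/- 2 of 4 (9.87% called, 3.35% higher and 6.51% lower), and in Ezh2 -/- 4 of 4 (41.6% called, 19.1% higher and 22.5% lower). The median log2 fold change over the 4 was 1.25, 1.18 and 1.53 in these backgrounds, against 0.01, 0.00229 and −0.03 over all tested genes. The 4 genes of 1 locus are not independent of each other, and these counts describe them only.

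In Ezh2 -/- all 4 tested members were called higher with V617F, as were 19.1% of all tested genes. There Hoxb5 was at 0.102 to 0.256 CPM without V617F and at 0.315 to 1.12 CPM with it. This was a rise of 2.14 ± 0.603 on the log2 scale (SE; edgeR adjusted p = 0.00832). Hoxb3 rose by 1.57 ± 0.380 (edgeR adjusted p = 0.00322). Its lowest V617F Ezh2 -/- library had 1.67, the median was 3.01 and the highest 4.02 CPM, above the highest Ezh2 -/- library at 1.05 CPM. Hoxb2 rose by 1.48 ± 0.385 (edgeR adjusted p = 0.00521) and lay above Ezh2 -/- in all 6 libraries. Hoxb4 showed the least change of the 4, 0.81 ± 0.272 (edgeR adjusted p = 0.0215), with 3.72 to 5.75 CPM against 2.22 to 2.76 CPM. Its call was lost without Ezh2 -/- replicate 1 (0.79, adjusted p = 0.057) or replicate 3 (0.74, adjusted p = 0.0853).

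In Ezh2 +/+ each call was lost without V617F Ezh2 +/+ replicate 1, and that of Hoxb3 also without other libraries. The share of all genes called in these smaller fits is not given here. Hoxb5 was at 3.45, 1.35, 0.610 and 0.661 CPM in the V617F libraries and Hoxb3 at 5.70, 2.80, 1.42 and 1.55 CPM. Replicate 1 was the highest for both genes, and the lowest V617F library lay within the range of the controls for each. The log2 fold changes were 1.79 ± 0.549 for Hoxb5 (SE; edgeR adjusted p = 0.0198), 1.16 ± 0.372 for Hoxb3 (adjusted p = 0.0248) and 1.34 ± 0.353 for Hoxb2 (adjusted p = 0.00746). Hoxb4, at 5.99, 3.87, 2.90 and 3.72 CPM, had 0.45 ± 0.273 and no call (edgeR adjusted p = 0.229). Without V617F Ezh2 +/+ replicate 1, 0 of 4 members were called, with 0.94 for Hoxb2 (edgeR adjusted p = 0.0545), 0.67 for Hoxb3 (adjusted p = 0.171) and 1.09 for Hoxb5 (adjusted p = 0.145). Hoxb3 also lost its call without control replicate 3 (edgeR adjusted p = 0.0525) or 4 (adjusted p = 0.0664), and in the female libraries alone (adjusted p = 0.0537), where Hoxb5 lost its call too (adjusted p = 0.0762). With only the compared groups in the fit, Hoxb3 had an edgeR adjusted p of 0.0943.

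In Ezh2 +/- the called members were Hoxb2 and Hoxb5. Hoxb2 was at 1.38 CPM in the lowest, 2.09 at the median and 4.60 in the highest of the 6 V617F libraries, all above the 4 Ezh2 +/- libraries. Hoxb5 was at 0.249, 1.05 and 2.94 CPM on the same reading, against 0.120, 0.181, 0.394 and 0.176 CPM, and the ranges overlapped through V617F Ezh2 +/- replicate 2. The log2 fold changes were 1.34 ± 0.402 (SE; edgeR adjusted p = 0.0322) and 2.13 ± 0.654 (adjusted p = 0.0371). Hoxb3, at 1.03 ± 0.390 (edgeR adjusted p = 0.098), and Hoxb4, at 0.63 ± 0.282 (adjusted p = 0.17), had no call. Both calls were lost when any 1 of Ezh2 +/- replicates 1, 2 and 5 or V617F Ezh2 +/- replicate 1 was left out (edgeR adjusted p = 0.0692 to 0.184 for Hoxb2 and 0.0812 to 0.177 for Hoxb5). The call of Hoxb5 was also lost without V617F Ezh2 +/- replicate 5 (adjusted p = 0.0562) or 6 (adjusted p = 0.054), while without replicate 2 all 4 members were called.

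**Figure D2:**
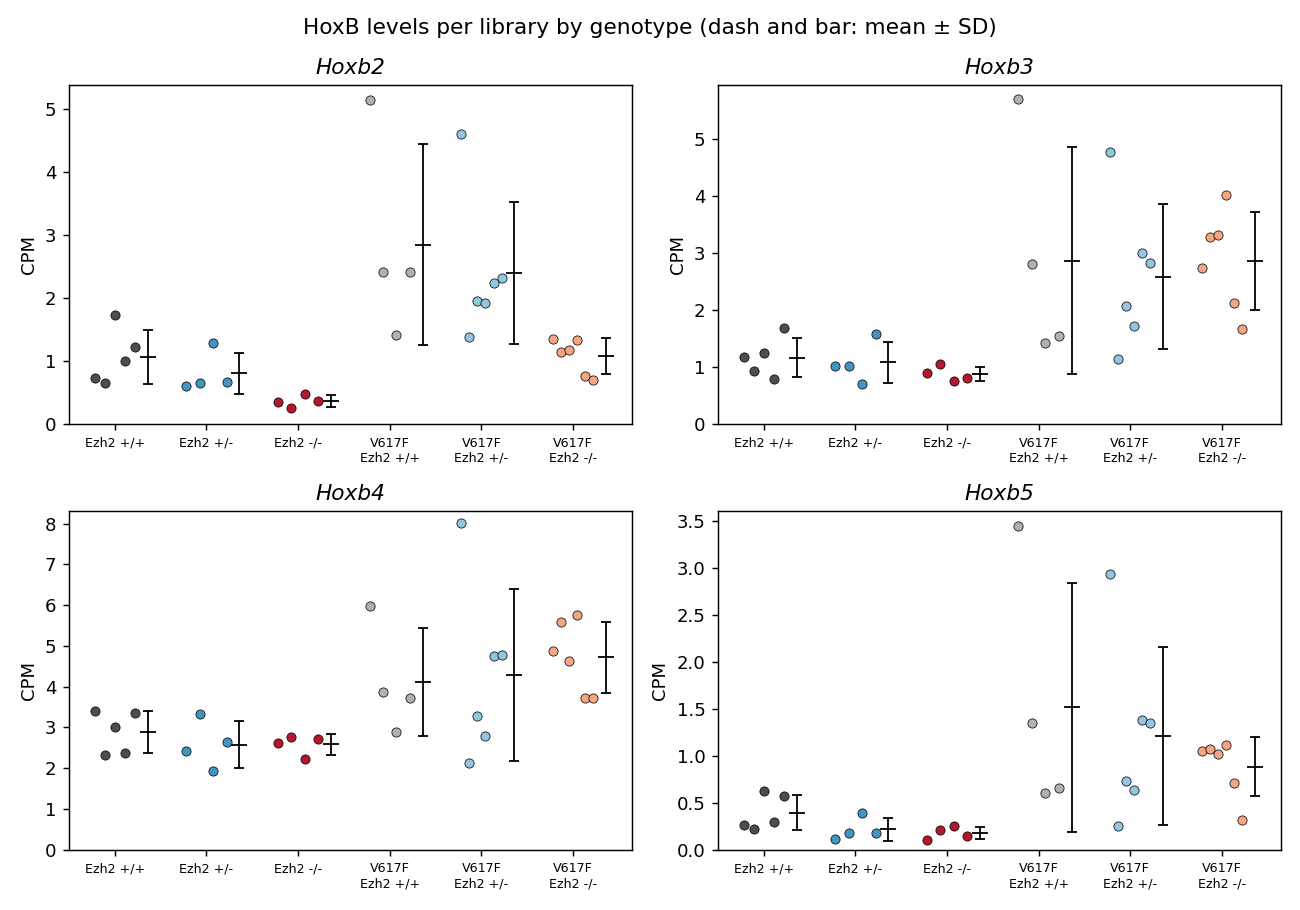
Levels of Hoxb2, Hoxb3, Hoxb4 and Hoxb5 (y axis, CPM) in each library (points) by genotype group (x axis), with the group mean and SD beside the points. Hoxb2 is lowest in Ezh2 -/- (0.247 to 0.476 CPM), and 1 library stands highest for all 4 genes in V617F Ezh2 +/+ and in V617F Ezh2 +/-.

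In the order of mean Hoxb2 level over the 6 groups, Ezh2 -/- was lowest at 0.359 CPM, apart from the next group. Ezh2 +/- (0.802 CPM), the controls (1.07 CPM) and V617F Ezh2 -/- (1.08 CPM) overlapped each other. V617F Ezh2 +/- (2.40 CPM) did not overlap V617F Ezh2 -/-, next below it, but overlapped V617F Ezh2 +/+ (2.85 CPM). Both of these groups overlapped the controls, whose replicate 3 had 1.72 CPM, above V617F Ezh2 +/- replicate 2 (1.38 CPM) and V617F Ezh2 +/+ replicate 3 (1.42 CPM). For Hoxb3, Hoxb4 and Hoxb5, with the groups ordered by each gene's own mean, every pair of neighbours overlapped. The 3 groups without V617F had the 3 lowest means for each of these genes. Hoxb3 and Hoxb4 had means of 2.86 and 4.72 CPM in V617F Ezh2 -/-, beside 2.87 and 4.12 CPM in V617F Ezh2 +/+. Over the 29 libraries the highest value exceeded the lowest 33.9-fold for Hoxb5, 20.8-fold for Hoxb2, 8.03-fold for Hoxb3 and 4.17-fold for Hoxb4.

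No difference between the effects of Ezh2 loss with and without V617F was called for a member. The interaction of V617F with Ezh2 -/- was 0.14 on the log2 scale for Hoxb2 (95% interval −0.88 to 1.15), 0.41 for Hoxb3 (−0.64 to 1.46), 0.35 for Hoxb4 (−0.42 to 1.12) and 0.36 for Hoxb5 (−1.24 to 1.95). With Ezh2 +/- the interaction was 0.00217 for Hoxb2 (−0.84 to 0.85), −0.14 for Hoxb3 (−1.19 to 0.92), 0.18 for Hoxb4 (−0.60 to 0.95) and 0.34 for Hoxb5 (−1.31 to 2.0). By edgeR 0 of 4 were called, 0 of 4 had an unadjusted p under 0.05, and DESeq2 called 0, where 19.1% of all genes were called for Ezh2 -/- (8.47% higher, 10.6% lower) and 0% for Ezh2 +/-. The intervals span more than 1 log2 unit on both sides for Hoxb5, and a p that misses the threshold does not show that the effects are alike.

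**Figure D3:**
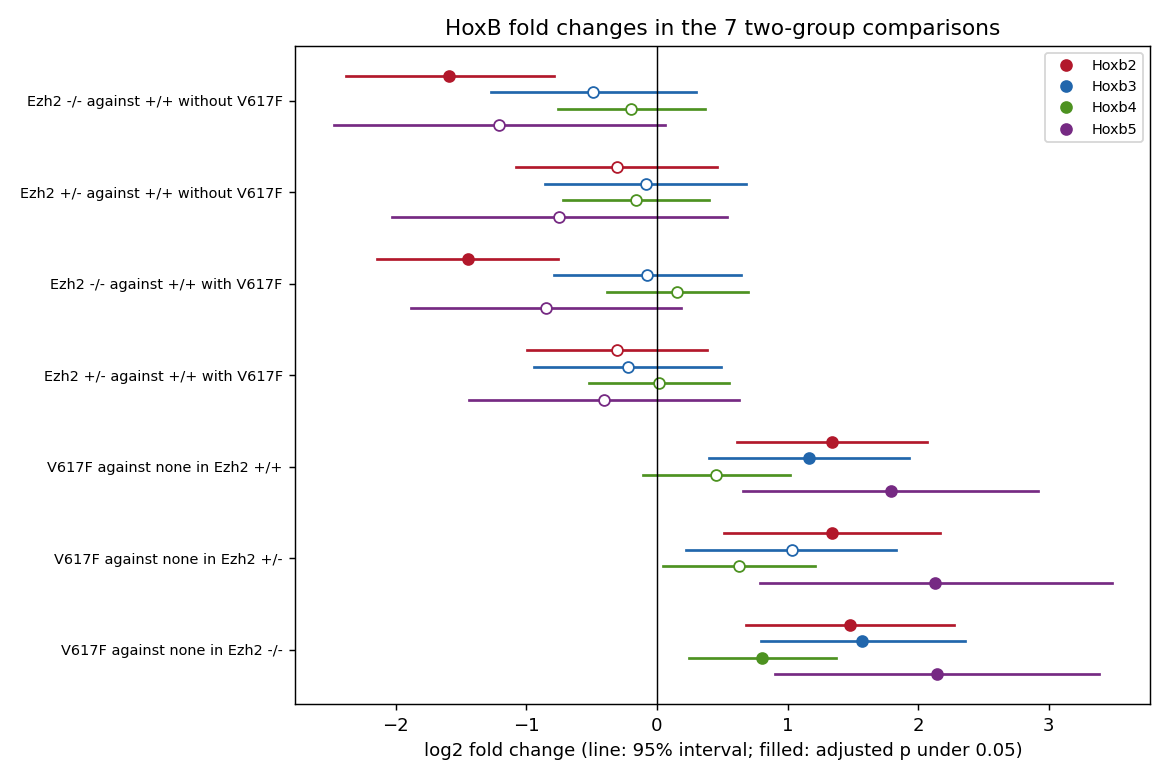
Log2 fold changes (x axis) of the 4 tested members with 95% intervals in the 7 comparisons of paired groups (y axis), filled where the adjusted p was under 0.05. Only Hoxb2 is filled in the Ezh2 -/- comparisons (−1.59 and −1.45), and all 4 members are filled for V617F in Ezh2 -/-.

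Ratios of members within a library do not depend on its depth, and they were compared after the fold changes had been seen. The 6 pairs of tested members in 4 comparisons gave 24 two-sided exact permutation tests, of which none passed after Benjamini-Hochberg adjustment. The ratio of Hoxb2 to Hoxb4 counts was 0.0896 to 0.215 in Ezh2 -/- and 0.215 to 0.573 in the controls (exact permutation p = 0.0159, the smallest this design allows, adjusted p = 0.0762). With V617F it was 0.186 to 0.277 in Ezh2 -/- and 0.489 to 0.857 in Ezh2 +/+ (exact permutation p = 0.00952, again the smallest possible, adjusted p = 0.0571). Neither pair of groups overlapped, the former at the edge. Relative to Hoxb3, Hoxb2 was also apart with V617F, at 0.333 to 0.492 against 0.862 to 1.56 (exact permutation p = 0.00952, adjusted p = 0.0571), and overlapped without it, at 0.235 to 0.634 against 0.622 to 1.38 (exact permutation p = 0.0317, adjusted p = 0.0831). The ratio of Hoxb3 to Hoxb4 was 0.299 to 0.381 in Ezh2 -/- and 0.449 to 0.719 in V617F Ezh2 -/-, also apart (exact permutation p = 0.00952, adjusted p = 0.0571). The ratio of Hoxb3 to Hoxb5 was 2.6 to 5.3 in V617F Ezh2 -/- and 1.65 to 2.34 in V617F Ezh2 +/+, apart as well (exact permutation p = 0.00952, adjusted p = 0.0571). Relative to Hoxb3 and to Hoxb4, Hoxb2 was thus lower in every V617F Ezh2 -/- library than in any V617F Ezh2 +/+ library, although neither test passed its adjustment.

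**Figure D4:**
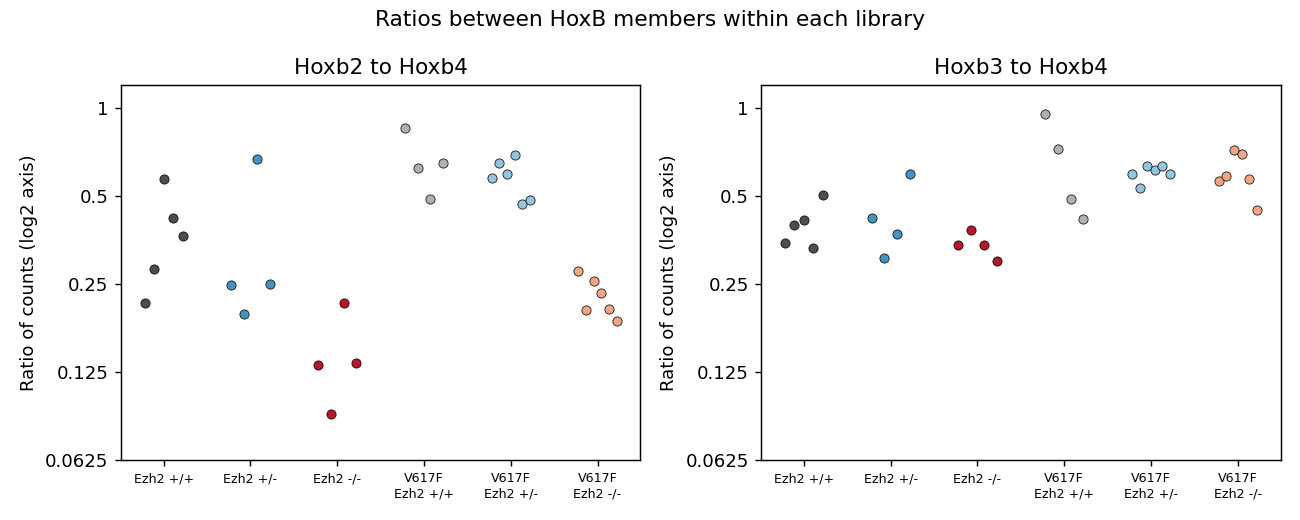
Ratio of Hoxb2 to Hoxb4 counts (left) and of Hoxb3 to Hoxb4 counts (right) within each library (points, log2 axis) by genotype group. The Hoxb2 to Hoxb4 ratio has its lowest medians in Ezh2 -/- (0.133) and V617F Ezh2 -/- (0.219), and the Hoxb3 to Hoxb4 ratio is higher in V617F Ezh2 -/- than in Ezh2 -/-.

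The 5 members below the filter were near the counting limit in most libraries. Hoxb1, at the 3′ end and active early in the hindbrain, had 4 counts in the controls, 6 in Ezh2 +/- and 0 in Ezh2 -/-, which allows up to 0.0151 CPM over that group. It had 10 counts in V617F Ezh2 +/+, present in all 4 libraries, 3 in V617F Ezh2 +/- and 2 in V617F Ezh2 -/-. Hoxb6, known for immortalising myeloid precursors when overexpressed, had 7, 4 and 4 counts in the groups without V617F and 42, 27 and 22 in those with it, and 31 of the 42 were in V617F Ezh2 +/+ replicate 1. Hoxb8, used likewise to immortalise myeloid progenitors, had 18 counts in all, of which 10 were in that library and 4 in V617F Ezh2 +/+ replicate 2, and it was at 0 in the controls, in Ezh2 +/- and in V617F Ezh2 +/-. Hoxb7 was at 0 in 4 groups, with limits of 0.0125 to 0.0163 CPM, and had 3 counts in V617F Ezh2 +/+ and 5 in V617F Ezh2 -/-. Hoxb9, a gene of the thoracic region in the embryo, had 7 of its 15 counts in V617F Ezh2 +/+, 6 of them in replicate 1. Of 13 two-sided exact permutation tests on these members none passed after adjustment. The lowest was Hoxb1 in V617F Ezh2 -/- against V617F Ezh2 +/+, at 0.00697 against 0.0609 CPM (exact permutation p = 0.00952, the smallest possible, adjusted p = 0.124).

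The levels of the tested members varied together within groups. After the mean of each group was subtracted, Pearson's r of log2 CPM over the 29 libraries was 0.88 for Hoxb3 and Hoxb4, 0.87 for Hoxb2 and Hoxb5, 0.80 for Hoxb3 and Hoxb5, 0.74 for Hoxb4 and Hoxb5, 0.63 for Hoxb2 and Hoxb3, and 0.60 for Hoxb2 and Hoxb4. These values are a description, since the genes share the libraries, their depth and, for overlapping genes, possibly reads. Among 9857 genes outside the Hox clusters, those most like Hoxb2 were Snx6 (r = 0.84), Pdzk1ip1 (0.84) and Tgm2 (0.82). Those most like Hoxb3 were Nwd1 (0.96), Tmem71 (0.96) and Cflar (0.95), and those most like Hoxb4 were Tmem106b (0.93), Xiap (0.93) and Slc30a7 (0.93). Hoxb5 was below the minimum mean level for this listing, at −0.81 on the log2 CPM scale.

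With V617F, the median change of stem and multipotent progenitor markers had the direction of the HoxB median in each Ezh2 background. With loss of both Ezh2 copies among V617F libraries, the median log2 fold change was 0.219 over the stem genes and −0.463 over the 4 tested members. There the members had no common direction: Hoxb2 was at −1.45, Hoxb5 at −0.85, Hoxb3 at −0.07 and Hoxb4 at 0.15. Only Hoxb2 was called, and 28 of the 30 stem genes had no call. Without V617F the medians for that loss were −0.917 and −0.846. The list held 30 genes, all detected, with none at 0 in any group, and Hox genes were left out of its score, the mean log2 CPM. The score was 2.55 to 4.07 in the controls and 2.27 to 2.72 in Ezh2 -/-. In V617F Ezh2 +/+ it was 5.16, 4.18, 3.14 and 3.57, highest in the same replicate 1, and in V617F Ezh2 -/- it was 4.15 to 5.06. Called genes of the list numbered 2 higher and 9 lower in Ezh2 -/- without V617F and 2 higher and 0 lower with it. For V617F they numbered 12 higher in Ezh2 +/+, 4 higher in Ezh2 +/- and 24 higher with 1 lower in Ezh2 -/-. Summed levels of the list were 1020 to 1870 CPM in the controls, 781 to 1070 in Ezh2 -/-, 1270 to 3200 in V617F Ezh2 +/+ and 2280 to 2850 in V617F Ezh2 -/-.

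With that score as a covariate, the fall of Hoxb2 with Ezh2 loss remained called, at −1.2 in the libraries without V617F (adjusted p = 0.00771 in edgeR) and −1.61 in those with it (adjusted p = 4.55e-05). Among the V617F libraries Hoxb5 was also called lower in Ezh2 -/- than in Ezh2 +/+ (−1.08, edgeR adjusted p = 0.00969). For V617F in Ezh2 -/-, 0 of 4 members remained called: Hoxb2 was at 0.42 (edgeR adjusted p = 0.557), Hoxb3 at −0.16 (adjusted p = 0.694), Hoxb4 at −0.37 (adjusted p = 0.252) and Hoxb5 at −0.12 (adjusted p = 0.921). In Ezh2 +/+, Hoxb2 remained called (0.83, adjusted p = 0.0256), while Hoxb3 (0.34, adjusted p = 0.105) and Hoxb5 (0.66, adjusted p = 0.149) did not. In Ezh2 +/-, Hoxb2 (0.98, edgeR adjusted p = 0.0284) and Hoxb5 (1.29, adjusted p = 0.0286) both remained called. The score differs between the groups itself, so cell makeup and genotype cannot be told apart by this fit. Without V617F it was 2.27 to 2.72 in Ezh2 -/-, and with V617F 4.15 to 5.06, with no overlap. The share of all genes called in this fit is not given here, so its counts do not set the members apart. Markers of other cells moved as well. Of 22 tested megakaryocyte and platelet genes 12 rose with V617F in Ezh2 +/+, 9 in Ezh2 +/- and 22 in Ezh2 -/-, and of 16 granulocyte genes 13, 10 and 16 rose. The 23 megakaryocyte and platelet genes summed to 223 to 806 CPM in the controls, 185 to 270 in Ezh2 -/-, 478 to 2060 in V617F Ezh2 +/+ and 1320 to 2020 in V617F Ezh2 -/-. The granulocyte genes summed to 50.9 to 350 CPM, 22.9 to 90.3, 682 to 1220 and 135 to 1380 in the same order, and no gene of either list was at 0 in a group. With V617F 14, 15 and 7 of 17 monocyte, macrophage and dendritic genes and 13, 14 and 6 of 19 T and NK cell genes fell (Ezh2 +/+, +/- and -/- in turn). In Ezh2 -/- 1 gene of the former list and 2 of the latter rose. With V617F in Ezh2 -/-, 12 of 24 erythroid genes fell and 1 rose, and 9 of 10 mast cell and basophil genes rose and 1 fell. Beside the fall of Hoxb2 in Ezh2 -/- without V617F, 9 of the 19 T and NK cell genes fell, as did 5 of the 17 monocyte, macrophage and dendritic and 6 of the 22 megakaryocyte and platelet genes, and none of these 3 lists had a gene that rose. The T and NK cell genes summed to 78.6 to 146 CPM in Ezh2 -/- and 88.9 to 301 in the controls, and the monocyte, macrophage and dendritic genes to 99.4 to 155 and 207 to 620. Beside the fall of Hoxb2 in V617F Ezh2 -/-, 12 of 14 B cell genes rose and 0 fell, with sums of 9.62 to 102 CPM against 5.2 to 12.9 in V617F Ezh2 +/+. Their part in the HoxB results was not tested.

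**Figure D5:**
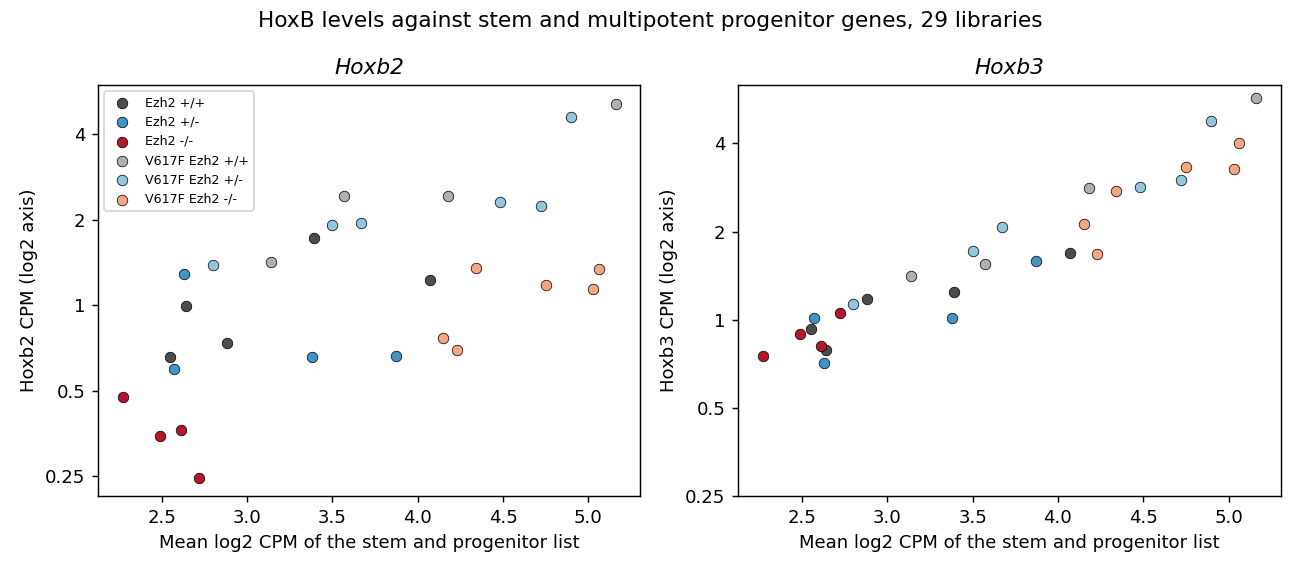
Levels of Hoxb2 (left) and Hoxb3 (right, both in CPM on a log2 axis) against the mean log2 CPM of the stem and multipotent progenitor list (x axis) in 29 libraries, coloured by genotype. Hoxb3 rises along the list's level across all groups, while the V617F Ezh2 -/- libraries have 0.694 to 1.35 CPM of Hoxb2 at list levels of 4.15 to 5.06, below V617F Ezh2 +/- and V617F Ezh2 +/+ libraries at like levels.

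The HoxA cluster, the other Hox cluster with many detected genes, had calls with Ezh2 loss opposite in direction to that of Hoxb2, the only HoxB call. Of 9 tested HoxA genes 3 rose and 0 fell, both without and with V617F. Of all tested genes 11.5% and 13% were called higher in these comparisons. Hoxa4 was at 1.02 ± 0.131 CPM in the controls (SD, n = 5) and 3.38 ± 0.318 in Ezh2 -/- (SD, n = 4), with a log2 fold change of 1.68 (edgeR adjusted p = 4.92e-07). Hoxa10 had 1.2 (edgeR adjusted p = 0.00846). With V617F the log2 fold changes of these genes were 1.53 and 1.23. Hoxb4, the HoxB paralogue of Hoxa4, had no call. V617F was accompanied by a rise of 2 HoxA genes, Hoxa9 and Hoxa10, in each Ezh2 background (0.40 and 1.48 in Ezh2 +/+, 0.48 and 1.51 in Ezh2 -/-). Of the HoxC genes 2 were tested and of the HoxD genes 0.

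Genes that work with or next to the HoxB members were read from the same fit. Among 8 tested TALE homeodomain cofactors, the DNA-binding partners of Hox proteins, 3 rose and 3 fell in Ezh2 -/- without V617F, whereas 4 rose and 0 fell in Ezh2 -/- with V617F. Pbx3 rose by 1.88 (edgeR adjusted p = 7.71e-13), whereas Meis1 fell (−1.18, adjusted p = 0.0398). With V617F in Ezh2 -/- Meis1 rose by 2.49 (edgeR adjusted p = 0.000303). Of 22 tested activators of Hox genes 2 rose and 5 fell in Ezh2 -/- without V617F, among them Mllt3 (0.44 higher, edgeR adjusted p = 0.000575) and the histone H3 lysine 27 demethylase Kdm6b (−0.77, adjusted p = 0.00198). Of 16 Polycomb genes 2 rose, Bmi1 (1.65) and Cbx2 (0.78), and 2 fell, Ezh2 among them. With V617F, Ezh2 -/- against +/+ gave 7 Polycomb genes that rose and 6 that fell, 0 and 2 of the activators, and 3 and 1 of 10 retinoid receptors and enzymes. Without V617F, Rxra (1.82) rose and Aldh1a1 (−0.27) fell among the retinoid genes.

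Around the cluster 11 genes were tested. Skap1, an adaptor of T cells and the next coding gene past Hoxb1, had −0.75 without a call (edgeR adjusted p = 0.308). It fell with V617F in Ezh2 +/+ by 2.48 on the log2 scale (edgeR adjusted p = 0.00333), where 13 of 19 T and NK cell markers fell as well. Snx11 (−0.05) and Cbx1 (0.09) had no call with Ezh2 loss. The calls in Hoxb2 to Hoxb5 were not accompanied by calls in Snx11 or Cbx1 in any comparison of Ezh2 -/- or V617F. Other genes of the 11 did have calls, beside the shares of all genes given above. With Ezh2 -/- 1 rose and 0 fell, both without and with V617F. For V617F, 1 rose and 1 fell in Ezh2 +/+ and in Ezh2 +/-, and 1 rose and 2 fell in Ezh2 -/-. The gene that rose with V617F in Ezh2 -/- was Copz2 (1.23, edgeR adjusted p = 0.0392).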

How the data were processed

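RNA of 230000 sorted MEPs per sample was sequenced, per the labels' protocols. STAR aligned the reads to mouse build mm9, per the submitters' processing notes. The sources used here do not give its version, the counter or the strand setting. The authors deposited whole-number counts per gene, with a gene length, for each library. Entrez identifiers were matched to RefSeq symbols for 18772 of 18834 genes, and the 62 others kept their identifier.

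Counts were tested with edgeR 4.0.16 in R 4.3.3 (quasi-likelihood, robust, TMM scaling) in 1 model over 29 libraries with group and labelled sex. Genes had to pass filterByExpr (minimum count 10, minimum total 15), and p-values were adjusted over 13928 genes at a threshold of 0.05. CPM used TMM library sizes, and RPKM divided CPM by the deposited length. The test was tried on simulated counts first. Alternatives were DESeq2 1.42.0, relative log expression scaling, no filter, no sex term, females only, the compared groups only, a replicate block, the stem score as covariate, 3 libraries left out together, and each library left out in turn.

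All 9 members were named whatever their values. From each list at most 3 genes per direction were named, those called with the lowest adjusted p in Ezh2 -/- against the controls, and values of those genes in other comparisons were added after they were seen, as were the locus neighbours and HoxA genes without that rank. Most alike genes needed a mean log2 CPM of at least 2, and members of at least 0. Members, lists and alternatives were chosen with earlier results of these data known, and the ratios after their values were seen. Exact permutation tests used scipy 1.17.1. Promoter sequences are from RefSeq, and no coordinates were moved between builds. Some results are not reported here.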

Additional observations from a re-analysis of the deposited data

Results flagged for a closer look

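Of 24 groups of member levels (4 members in 6 genotypes), 2 had a library far from the rest, where chance alone flags about 1 in 20 groups. Hoxb2 was at 1.29 CPM in Ezh2 +/- replicate 4, where the next library of the group had 0.663 CPM. Hoxb2 was at 4.60 CPM in V617F Ezh2 +/- replicate 1, where the next had 2.32 CPM.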

How the results depend on the processing

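Hoxb2 kept its direction and its call with Ezh2 -/- under all 9 alternatives (edgeR or DESeq2 adjusted p = 0.00067 to 0.00818 without V617F and 4.55e-05 to 0.00654 with it) and without any 1 library (0.00431 to 0.0175 and 0.00207 to 0.0222). Of the 11 called results, 85 of 99 alternative values kept the call. The number of called members moved as follows. With only the compared groups fitted it was 2 for Ezh2 -/- without V617F (Hoxb5 added, adjusted p = 0.0401) and 0 for V617F in Ezh2 +/-. Without the filter it was 3 for Ezh2 -/- with V617F, adding Hoxb1 (−3.01, adjusted p = 0.0186) and Hoxb8 (−3.39, 0.048), and 5 for V617F in Ezh2 +/+, adding Hoxb6 (2.69, 0.0429) and Hoxb8 (4.75, 0.0451). With the stem score it was 2 for Ezh2 -/- with V617F, 1 for V617F in Ezh2 +/+ and 0 in Ezh2 -/-. Without control replicate 5 and Ezh2 +/- replicates 2 and 5 it was 0 for V617F in Ezh2 +/-. Leaving out 1 library gave 0 to 3 for V617F in Ezh2 +/+ and 0 to 4 in Ezh2 +/-. The members added without the filter were near the counting limit. Hoxb8 had 14 counts in V617F Ezh2 +/+, 10 of them in replicate 1, and Hoxb6 had 42, of which 31 were in that library. No exact permutation test of Hoxb1, Hoxb6 or Hoxb8 passed its adjustment. The share of all genes called in each of these fits is not given here, so the counts describe the members only. The cause of these moves was not tested beyond the fewer samples or genes used.

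In no comparison did all 4 pairs of 1 replicate number deviate together (r over 0.1 in 13 of 28 pairs, −0.44 to 0.80, with 3 of 4 pairs in both Ezh2 +/- against +/+ comparisons and for V617F in Ezh2 -/-), so the numbers were not taken to pair the samples. With the replicate block the count for V617F in Ezh2 +/- was 1, as Hoxb2 kept its call and Hoxb5 lost it (2.02, edgeR adjusted p = 0.0722). In the same fit Hoxb3 in Ezh2 -/- with V617F was 0.0736 and Hoxb4 in Ezh2 +/- with V617F −0.00631.

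Some values changed sign, among them 3 called rises. With the stem score, without V617F Hoxb3 was 0.20 and Hoxb4 0.24 in Ezh2 -/-, and with V617F Hoxb4 was −0.0816. For V617F, Hoxb4 was −0.0528 in Ezh2 +/+, and in Ezh2 -/- the called rises of Hoxb3 (1.57), Hoxb4 (0.81) and Hoxb5 (2.14) became −0.16, −0.37 and −0.12. The other values that changed sign had no call. The Ezh2 -/- interactions were −0.41 (Hoxb2), −0.50 (Hoxb3), −0.32 (Hoxb4) and −0.78 (Hoxb5), and the Ezh2 +/- interaction of Hoxb3 was 0.0946. Without the 3 libraries named above, Hoxb2 was 0.33 and Hoxb5 0.0871 in Ezh2 +/- without V617F, with interactions of −0.69 and −0.54. In females only, Ezh2 +/- gave 0.0493 for Hoxb3 and 0.0268 for Hoxb4 without V617F, −0.07 for Hoxb4 with it, and an interaction of −0.10. Without the sex term Hoxb3 was 0.00165 in Ezh2 -/- with V617F. With only the compared groups Hoxb4 was −0.0685 in Ezh2 +/- with V617F, and the Ezh2 +/- interaction of Hoxb2 was −0.0489. Leaving out 1 library gave, for Hoxb3, −0.24 to 0.0284 in Ezh2 +/- without V617F and −0.29 to 0.47 in Ezh2 -/- with it. For Ezh2 +/- with V617F it gave −0.60 to 0.12 (Hoxb2), −0.49 to 0.32 (Hoxb3), −0.26 to 0.24 (Hoxb4) and −0.88 to 0.35 (Hoxb5). The Ezh2 -/- interaction of Hoxb2 ran from −0.0567 to 0.56, and the Ezh2 +/- interactions from −0.29 to 0.46 (Hoxb2), −0.40 to 0.41 (Hoxb3), −0.10 to 0.40 (Hoxb4) and −0.13 to 1.15 (Hoxb5). Depth limits Hoxb1 and Hoxb6 to Hoxb9, for which most libraries held 3 counts or fewer.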
